A study of Homo sapiens with 4 samples.

Results

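The genes described here encode the ATP-dependent chromatin remodelers and their relatives that carry SMARC, ARID, INO80, CHD or BRD symbols. They were taken as the protein-coding rows whose symbol starts with SMARC, ARID or INO80, or with CHD or BRD followed by a digit, which gave 46 of the 62893 genes in the count table. Of these, 45 passed the filter on low counts and were tested. ARID3C was the exception, with 1 and 1 counts in the siNSUN2 libraries and 2 and 15 counts in the siControl libraries. The rule used symbols alone and no measured value.

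Poly(A) RNA was sequenced from T24, an established human bladder carcinoma cell line, after treatment with siRNA against NSUN2 (siNSUN2, 2 libraries) or with control siRNA (siControl, 2 libraries). NSUN2 encodes an RNA methyltransferase that places 5-methylcytosine on tRNAs and other RNAs. The sources used here do not give the time after transfection or the sequence and number of the siRNAs, and all libraries come from this single cell line. Values are given as CPM, the counts of a gene divided by library size and scaled up, with library sizes scaled by TMM factors, and where 2 values stand for a group they are those of replicate 1 and then replicate 2.

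The siNSUN2 libraries held 92640839 and 33633249 counts and the siControl libraries 42298529 and 215936965, so that 1 CPM stood for 34.2 to 213 counts. NSUN2 (ENSG00000037474) was at 29.6 and 30.1 CPM in siNSUN2 cells, against 281 and 284 CPM in siControl cells (log2 fold change -3.24, SE 0.0429, edgeR quasi-likelihood test with Benjamini-Hochberg adjustment, adjusted p = 1.64e-09). The labels do not say whether replicates were separate cultures, so p-values cover only how far these libraries differ, and that spread may be technical. Summed levels of 6 epithelial markers were 1200 and 1109 CPM in siNSUN2 cells and 1182 and 1253 CPM in siControl cells, with EPCAM, CDH1 and KRT19 near 0. Of 10 urothelial markers only 3 averaged over 1 CPM, and the sum of all 10 was 31.7 and 30.8 CPM in siNSUN2 cells and 25.4 in each siControl library. The 3 did not move together. PPARG was at 23.5 and 22.5 CPM in siNSUN2 cells against 14.4 and 13.7 CPM in siControl cells. FOXA1 was at 6.26 and 5.78 against 6.31 and 6.77 CPM, and UPK1B at 1.62 and 2.07 against 3.86 and 4.18 CPM. The 4 mesenchymal-type markers VIM, CDH2, ZEB1 and FN1 summed to 2534 and 2522 CPM in siNSUN2 cells and to 1537 and 1565 CPM in siControl cells, and the part of that difference in the results below was not tested. The 4 leukocyte markers summed to 0.250 and 0.584 CPM in siNSUN2 cells and to 0 and 0.0611 CPM in siControl cells. The 2 endothelial markers summed to 0.577 and 1.87 CPM in siNSUN2 cells and to 0.471 and 0.282 CPM in siControl cells. The 2 erythroid markers summed to 0 and 2.69 CPM in siNSUN2 cells and to 0 and 0.188 CPM in siControl cells. As in any bulk sample, a smaller share of some cells and less RNA per cell cannot be told apart in a CPM value.

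Chromatin remodelers use ATP to slide, evict or exchange nucleosomes, and they fall into the SWI/SNF (BAF), ISWI, CHD and INO80 families by their ATPase. BAF complexes exist in a canonical, a PBAF and a non-canonical form, set apart by subunits such as ARID1A, ARID2 and BRD9, and their genes are often mutated in carcinomas, those of the bladder included. Bromodomains bind acetylated lysines of histones, and ARID domains bind DNA. Many of the genes come in related pairs whose proteins take the same place in a complex.

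Of the 45 genes tested, 15 were higher in siNSUN2 cells (33.3%, against 27.1% of all 16889 genes tested) and 14 were lower (31.1%, against 25.5%), at an adjusted p below 0.05 in edgeR's quasi-likelihood test. The other 16 were not called. Calls in either direction reached 64.4% of the remodelers and 52.6% of all genes, but the remodelers were expressed at a higher level, with a median of 71.4 CPM in siControl cells against 14.4 CPM for all genes. Among genes averaging at least 5 CPM, 72.1% of 43 remodelers and 74.5% of all 10388 genes were called. The share called was therefore near the background of genes expressed at this level. Changes were mostly small: the median absolute log2 fold change was 0.19 for the remodelers and 0.39 for all genes. Only ARID3A and ARID3B changed at least 2-fold, 2 of 45, against 9.49% of all genes. Neither the median absolute change nor this share was matched for expression level. The families differed in the direction of their members. The CHD genes had 1 higher and 7 lower of 10 (median -0.27), the SMARC genes 3 higher and 5 lower of 13 (median -0.11), the ARID genes 3 higher and 1 lower of 9 (median 0.02), the BRD genes 5 higher and 1 lower of 8 (median 0.16) and the INO80 genes 3 higher and 0 lower of 5 (median 0.16). The median was 0.02 over all remodelers and 0.03 over all genes tested.

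The direction of many members depended on a correction for the GC content and length of their transcripts. With loess offsets on both in the edgeR fit, 8 remodelers were higher and 20 lower (background 23.2% and 23.8%), and the median was -0.10, against 0.01 for all genes. For the remodelers and named partners described below, the log2 fold change with these offsets is given wherever it differs in direction or in call. For genes called without the offsets, it is also given where it differs by over 1.5 times. Some genes called in neither fit also differ by that much, such as ARID5B (-0.20, and -0.11 with the offsets) and BRD3OS (0.16 and 0.08), and are not marked. The adjusted p with the offsets comes from the same edgeR test. By family, higher and lower calls with the offsets were 0 and 6 for CHD, 1 and 9 for SMARC, 4 and 2 for ARID, 3 and 2 for BRD and 0 and 1 for INO80 genes. With the offsets, 6 genes stayed called higher (ARID3A, ARID3B, BRD1, BRD2, BRD3 and SMARCA2) and 10 stayed called lower (SMARCA1, CHD6, CHD4, SMARCA5, BRD7, CHD1L, CHD7, SMARCC2, SMARCC1 and CHD8). Across all 18 alternatives tried, the call was the same for 4 genes that rose (ARID3A, ARID3B, BRD1 and BRD2) and for 6 that fell (SMARCA1, CHD6, CHD4, SMARCA5, BRD7 and CHD1L). The shares of all genes that kept their calls are not given here, so these counts describe the named genes alone.

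**Figure D1:**
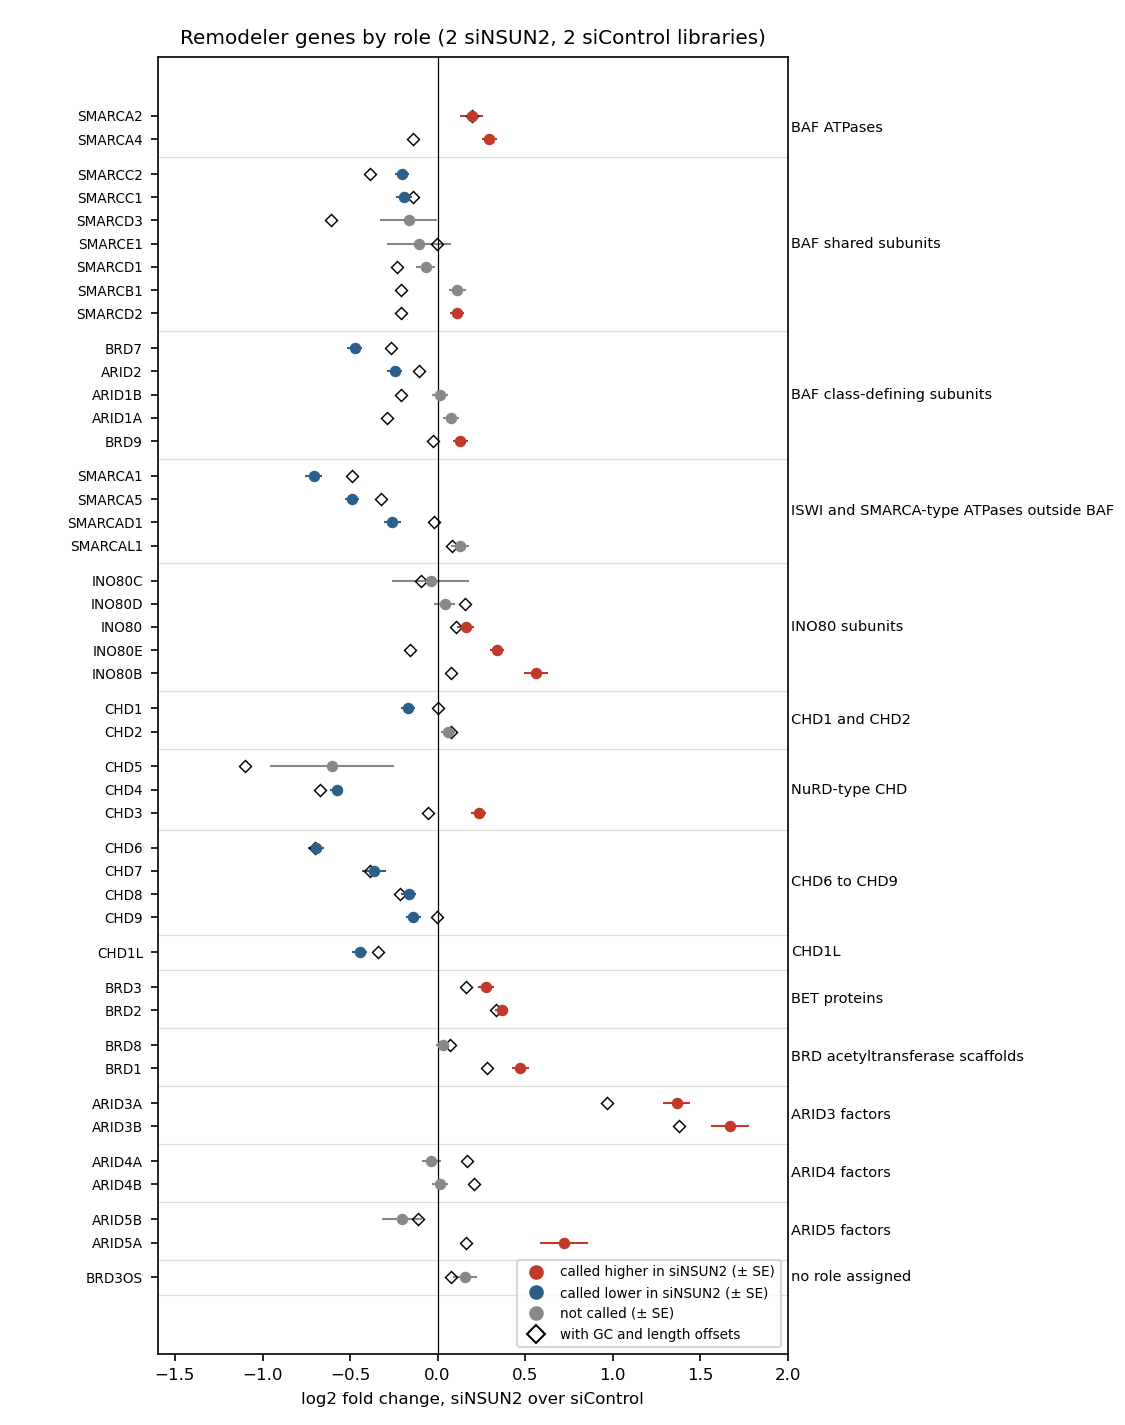
Log2 fold change of siNSUN2 over siControl for 44 remodeler genes, grouped by role, with the standard error of the edgeR fit as bars and with the value under GC content and length offsets as open diamonds. ARID3B (1.67) and ARID3A (1.37) stand far to the right, SMARCA1 (-0.71) and CHD6 (-0.69) to the left, and for SMARCA4 and INO80E the diamond lies on the other side of 0.

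ARID3A and ARID3B, paralogous DNA-binding factors of the ARID family, had the largest changes of the remodelers, and both rose. ARID3A (ENSG00000116017), first known as an activator of immunoglobulin heavy chain transcription in B cells, was at 66.2 and 74.2 CPM in siNSUN2 cells and at 25.6 and 28.5 CPM in siControl cells. Its groups averaged 70.2 ± 5.62 and 27.1 ± 2.06 CPM (SD, n = 2 each) and did not overlap. The log2 fold change was 1.37 (SE 0.0775, adjusted p = 1.74e-05), and 0.97 with GC and length offsets. The summed leukocyte markers were at 0.250 and 0.584 CPM in the same siNSUN2 libraries and at 0 and 0.0611 CPM in the siControl libraries. A link between these markers and ARID3A was not tested. ARID3B (ENSG00000179361) was at 42.4 and 43.8 CPM in siNSUN2 cells, against 12.0 and 14.8 CPM in siControl cells. The lower siNSUN2 library was far above the higher siControl library. Its log2 fold change was 1.67 (SE 0.107, adjusted p = 6.97e-05). Leaving out each library in turn gave 1.23 to 1.45 for ARID3A and 1.47 to 1.83 for ARID3B. Per kilobase, the level of ARID3A was 11.8 RPKM in siNSUN2 cells and 4.56 RPKM in siControl cells, and that of ARID3B 10.2 and 3.16 RPKM.

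The other ARID factors did not share that pattern. ARID5A (ENSG00000196843), an RNA-binding member that stabilizes Il6 mRNA in mouse, was at 6.44 and 6.57 CPM in siNSUN2 cells and at 3.58 and 4.27 CPM in siControl cells. It rose by 0.72 on the log2 scale (SE 0.137, adjusted p = 0.00164), but with GC and length offsets the value was 0.16 and not called (adjusted p = 0.352). ARID5B, a partner of the demethylase PHF2, was at 6.13 and 5.81 CPM in siNSUN2 cells and 6.61 and 7.13 CPM in siControl cells (log2 fold change -0.20, adjusted p = 0.169). ARID4A and ARID4B, DNA-binding subunits of SIN3 histone deacetylase complexes, had overlapping groups and log2 fold changes of -0.04 and 0.02. With the offsets both were called higher, at 0.17 (adjusted p = 0.0234) for ARID4A, whose sign thereby turned, and at 0.21 (adjusted p = 0.00344) for ARID4B.

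**Figure D2:**
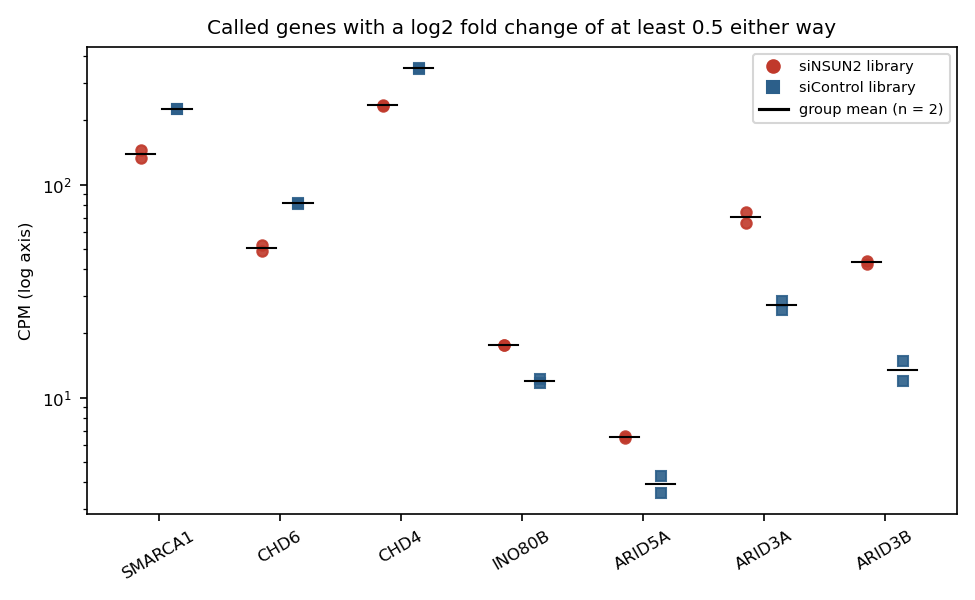
CPM on a log axis in each siNSUN2 library (circles) and each siControl library (squares) for the 7 called remodeler genes with a log2 fold change of at least 0.5 in either direction, with group means (n = 2) as lines. ARID3A, ARID3B, ARID5A and INO80B are higher in siNSUN2 cells, and SMARCA1, CHD6 and CHD4 lower. INO80B and ARID5A are not called once GC and length offsets are used. The groups do not overlap for any of the 7, which adds nothing to their calls, since 0 of the 29 called remodelers have overlapping groups.

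The ISWI ATPases both fell. SMARCA1 (SNF2L, ENSG00000102038) and SMARCA5 (SNF2H) are the alternative motors of the ISWI complexes, which space nucleosomes evenly. SMARCA1 was at 145 and 133 CPM in siNSUN2 cells, against 226 and 227 CPM in siControl cells. It had the largest fall among the remodelers, with means of 139 ± 8.20 and 227 ± 0.789 CPM (SD, n = 2 each) that did not overlap. Its log2 fold change was -0.71 (SE 0.0476, adjusted p = 2.22e-06). SMARCA5 was at 131 and 129 CPM in siNSUN2 cells and at 183 and 182 CPM in siControl cells (log2 fold change -0.49, SE 0.0387, adjusted p = 6.11e-06), and its value was -0.32 with GC and length offsets. Per kilobase, SMARCA1 had the higher level of the pair, at 38.9 RPKM in siNSUN2 cells and 63.6 RPKM in siControl cells, against 16.4 and 23.0 RPKM for SMARCA5. SMARCAD1, a SNF2-type ATPase that acts in heterochromatin maintenance and DNA end resection, was at 104 and 95.8 CPM in siNSUN2 cells and at 120 and 119 CPM in siControl cells. Its log2 fold change of -0.26 (adjusted p = 0.0014) became -0.02 with the offsets and was not called. SMARCAL1, an annealing helicase of stalled replication forks, was not called (33.5 CPM in each siNSUN2 library, 30.4 and 30.8 CPM in siControl cells, log2 fold change 0.13, adjusted p = 0.0575), and its value was 0.05 without siControl replicate 1.

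In the CHD family, 7 of 10 genes were called lower and 1 higher, and with GC and length offsets 6 were lower and 0 higher. CHD4 (ENSG00000111642), the main ATPase of the NuRD complex, which joins nucleosome remodeling to histone deacetylation, was at 236 and 235 CPM in siNSUN2 cells and at 351 and 352 CPM in siControl cells. Its replicates lay within 2 CPM of each other in both groups. The log2 fold change was -0.58 (SE 0.0371, adjusted p = 1.7e-06), and -0.67 with the offsets. CHD3, the paralogue that can take the place of CHD4 in NuRD, was at 291 and 276 CPM in siNSUN2 cells and at 241 CPM in each siControl library, a rise of 0.24 (SE 0.0411, adjusted p = 0.00101) that became -0.05 and not called with the offsets (adjusted p = 0.217). CHD5, the third NuRD-type member, best known from neurons, stayed under 1 CPM in every library and was not called (log2 fold change -0.60, adjusted p = 0.191), but with the offsets it was called lower (-1.10, adjusted p = 0.0312).

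Each of the genes CHD6 to CHD9 was called lower, CHD9 no longer so with GC and length offsets. CHD6 (ENSG00000124177) was at 51.8 and 49.0 CPM in siNSUN2 cells and at 82.0 and 81.1 CPM in siControl cells. The groups were far apart relative to their spread, and it fell by 0.69 on the log2 scale (SE 0.0452, adjusted p = 1.84e-06). CHD7 (ENSG00000171316), mutated in CHARGE syndrome, was at 31.6 and 28.4 CPM in siNSUN2 cells and at 37.1 and 40.1 CPM in siControl cells. Its groups did not overlap, and its log2 fold change was -0.36 (SE 0.0667, adjusted p = 0.00162). CHD8, a regulator of transcription mutated in autism, was at 174 and 166 CPM in siNSUN2 cells and at 192 and 190 CPM in siControl cells (log2 fold change -0.17, adjusted p = 0.00771). CHD9 was at 176 and 166 CPM in siNSUN2 cells and at 186 and 191 CPM in siControl cells, with a log2 fold change of -0.14 (adjusted p = 0.0237). The change of CHD9 was 0.00 with those offsets, -0.09 and not called without siNSUN2 replicate 2 (adjusted p = 0.114) and -0.23 without siControl replicate 1.

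Among the remaining CHD genes, CHD1L, a remodeler activated by poly(ADP-ribose) at DNA breaks, was at 56.9 and 55.7 CPM in siNSUN2 cells and at 78.0 and 75.3 CPM in siControl cells (log2 fold change -0.44, SE 0.0427, adjusted p = 2.14e-05). CHD1, which binds methylated lysine 4 of histone H3 at active genes, was at 188 and 179 CPM in siNSUN2 cells and at 207 CPM in each siControl library (log2 fold change -0.17, adjusted p = 0.00675), and was not called with the offsets (adjusted p = 0.93). CHD2, its closest relative, was not called at 245 and 237 CPM in siNSUN2 cells and 231 CPM in each siControl library (log2 fold change 0.06, adjusted p = 0.237).

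BAF subunits moved little, and the calls that they had went both ways. Of 14 BAF members, 4 were higher (SMARCA4, SMARCA2, SMARCD2 and BRD9) and 4 lower (BRD7, ARID2, SMARCC2 and SMARCC1), with a median log2 fold change of -0.03. With GC and length offsets 1 was higher and 10 were lower, with a median of -0.21. The ATPase SMARCA4 (BRG1, ENSG00000127616) was at 76.3 and 77.9 CPM in siNSUN2 cells and at 63.7 and 61.9 CPM in siControl cells. Its groups did not overlap (log2 fold change 0.30, SE 0.0419, adjusted p = 0.000269), but with the offsets the value was -0.14 and called lower (adjusted p = 0.0327). SMARCA2 (BRM, ENSG00000080503), the alternative ATPase, was at 31.0 and 28.2 CPM in siNSUN2 cells and at 26.6 and 25.2 CPM in siControl cells. Its value of 0.19 was the same with and without the offsets (SE 0.0654, adjusted p = 0.032 without them). The call was lost without siNSUN2 replicate 1 (0.12, adjusted p = 0.196), without siControl replicate 1 (0.17, adjusted p = 0.0908), without siControl replicate 2 (0.14, adjusted p = 0.195) and with DESeq2 (adjusted p = 0.179).

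The subunits with ARID or BRD symbols, which set BAF classes apart, differed in direction. ARID1A (ENSG00000117713) and ARID1B (ENSG00000049618), of which canonical BAF holds either, were not called. ARID1A was at 149 CPM in each siNSUN2 library and at 137 and 146 CPM in siControl cells (log2 fold change 0.07, SE 0.0453, adjusted p = 0.206). ARID1B was at 78.7 and 80.2 CPM in siNSUN2 cells and at 76.2 and 81.0 CPM in siControl cells, with overlapping groups (log2 fold change 0.01, SE 0.0455, adjusted p = 0.839). With GC and length offsets both were called lower, at -0.29 for ARID1A (adjusted p = 0.000543) and -0.21 for ARID1B (adjusted p = 0.00378). ARID2 (ENSG00000189079) of PBAF was at 49.6 and 49.2 CPM in siNSUN2 cells and at 58.8 and 58.2 CPM in siControl cells, and fell by 0.24 on the log2 scale (SE 0.0416, adjusted p = 0.000848), but with the offsets its value was -0.10 and not called (adjusted p = 0.0504). BRD7, the bromodomain subunit of PBAF, was at 148 and 142 CPM in siNSUN2 cells and at 203 and 199 CPM in siControl cells. It fell by 0.47 on the log2 scale (SE 0.0414, adjusted p = 1.13e-05), and its value with the offsets was -0.27. BRD9 (ENSG00000028310), the bromodomain subunit of non-canonical BAF, was at 73.7 and 75.8 CPM in siNSUN2 cells and at 67.8 and 68.7 CPM in siControl cells (log2 fold change 0.13, SE 0.0415, adjusted p = 0.0249). That call was lost, with a value of -0.03, under the offsets (adjusted p = 0.632). It was also lost without siNSUN2 replicate 2 (adjusted p = 0.064), siControl replicate 1 (log2 fold change 0.05) or siControl replicate 2 (adjusted p = 0.0812).

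The other SMARC subunits of BAF showed small changes. SMARCB1 (ENSG00000099956), the core subunit lost in rhabdoid tumours, was at 76.6 and 71.3 CPM in siNSUN2 cells and at 69.6 and 67.4 CPM in siControl cells and was not called (log2 fold change 0.11, SE 0.0483, adjusted p = 0.0809). SMARCB1 was called higher without siNSUN2 replicate 2 (0.17, adjusted p = 0.0229) and lower with GC and length offsets (-0.21, adjusted p = 0.00533). The scaffold subunits SMARCC1 and SMARCC2 both fell. SMARCC1 was at 241 and 221 CPM in siNSUN2 cells and at 263 and 265 CPM in siControl cells (log2 fold change -0.19, adjusted p = 0.00793), with -0.12 without siNSUN2 replicate 2. SMARCC2 was at 95.6 and 93.3 CPM in siNSUN2 cells and at 108 and 110 CPM in siControl cells (log2 fold change -0.20, adjusted p = 0.00232), with -0.39 under the offsets. Of the alternative SMARCD subunits, which bridge the complex to transcription factors, SMARCD2 was called higher at 0.11 (adjusted p = 0.0453), a call lost whichever library was left out, with 0.06 without siControl replicate 1. SMARCD2 was called lower with the offsets (-0.21, adjusted p = 0.00424). SMARCD1 (log2 fold change -0.07) and SMARCD3 (-0.16) were not called, and both were called lower with the offsets, at -0.23 (adjusted p = 0.00843) and -0.61 (adjusted p = 0.018). SMARCE1, a DNA-binding subunit, varied widely between replicates, at 71.6 and 55.4 CPM in siNSUN2 cells and 64.1 and 72.8 CPM in siControl cells (log2 fold change -0.11, adjusted p = 0.708).

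Of the 5 genes named after the INO80 complex, which remodels nucleosomes that hold the histone variant H2A.Z, 3 were called higher, and with GC and length offsets 0 were higher and 1 lower. The ATPase INO80 (ENSG00000128908) was at 74.3 and 68.3 CPM in siNSUN2 cells and at 64.8 and 63.0 CPM in siControl cells, without overlap (log2 fold change 0.16, SE 0.0504, adjusted p = 0.0238). The call of INO80 was lost with those offsets (0.11, adjusted p = 0.101) and without siNSUN2 replicate 1 (0.09, adjusted p = 0.164), siControl replicate 1 (adjusted p = 0.112) or siControl replicate 2 (adjusted p = 0.0949). INO80B (ENSG00000115274), a subunit, was at 17.7 CPM in each siNSUN2 library and at 11.7 and 12.2 CPM in siControl cells, a rise of 0.56 (SE 0.0683, adjusted p = 9.74e-05). With the offsets INO80B was at 0.08 and not called (adjusted p = 0.363). The subunit INO80E was at 97.5 and 97.4 CPM in siNSUN2 cells and at 77.2 and 76.9 CPM in siControl cells (log2 fold change 0.34, adjusted p = 7.72e-05), but was called lower with the offsets (-0.16, adjusted p = 0.00891). INO80C and INO80D had overlapping groups and were not called (log2 fold changes -0.04 and 0.04), although INO80C was called lower without siControl replicate 1 (-0.32, adjusted p = 0.0341).

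BRD2 and BRD3, BET proteins whose tandem bromodomains read acetylated histones at active promoters and enhancers, were called higher with and without GC and length offsets. BRD2 was at 405 and 398 CPM in siNSUN2 cells and at 306 and 317 CPM in siControl cells (a rise of 0.37 on the log2 scale, SE 0.0396, adjusted p = 4.57e-05), and 0.33 with the offsets. Per kilobase, the level of BRD2 was 116 RPKM in siNSUN2 cells, the highest of the remodelers tested there, and 89.8 RPKM in siControl cells, where BRD7 was at 93.8 RPKM. BRD3 was at 86.5 and 86.4 CPM in siNSUN2 cells and at 69.2 and 73.5 CPM in siControl cells (log2 fold change 0.28, SE 0.0449, adjusted p = 0.000649), with 0.16 under the offsets and 0.17 without siControl replicate 1. Outside the BET proteins, BRD1, a scaffold of histone acetyltransferase complexes, was at 44.9 CPM in each siNSUN2 library and at 31.7 and 32.9 CPM in siControl cells, a rise of 0.47 (SE 0.0474, adjusted p = 2.75e-05) that was 0.28 with the offsets. BRD8 of the TIP60 acetyltransferase complex was not called, at 106 CPM in each siNSUN2 library and 104 and 103 CPM in siControl cells. BRD3OS, a protein-coding row on the opposite strand from BRD3, was not called either (log2 fold change 0.16, adjusted p = 0.0784), although it was called higher without siNSUN2 replicate 2 (0.23, adjusted p = 0.0493) and was at 0.04 without siControl replicate 1.

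Some related proteins can replace each other in a complex. The share of the first gene in 8 pairs of related genes was computed within each library from CPM per kilobase of transcript. That share does not depend on scaling between libraries. Not every pair holds such alternatives: BRD7 belongs to PBAF and BRD9 to non-canonical BAF. With 2 libraries against 2 no exact permutation test can reach a p of 0.05, so the shares are given without a test. CHD3 and CHD4 differed most. CHD3 made up 51.3% and 50.1% of the pair in siNSUN2 cells, against 37.0% in each siControl library, so the NuRD ATPases stood near parity in siNSUN2 cells while CHD4 led in siControl cells. The difference was 13.7 percentage points, or 0.81 in the log2 ratio of CHD3 to CHD4 and 0.62 with GC and length offsets. BRD7 made up 66.9% and 65.3% of the BRD7 and BRD9 pair in siNSUN2 cells and 75.1% and 74.4% in siControl cells, with a difference in log2 ratio of -0.60 and of -0.24 with the offsets. SMARCA1 took 71.1% and 69.6% of the ISWI pair in siNSUN2 cells and 73.4% and 73.6% in siControl cells. SMARCA2 took 27.6% and 25.4% of the BAF ATPase pair in siNSUN2 cells and 28.2% and 27.7% in siControl cells, and the difference in log2 ratio was -0.10, but 0.33 with the offsets. ARID1A took 70.4% and 70.1% of its pair with ARID1B in siNSUN2 cells and 69.3% and 69.5% in siControl cells, a difference in log2 ratio of 0.06 that was -0.08 with the offsets. The shares of SMARCC1 with SMARCC2 overlapped between the groups, with a difference in log2 ratio of 0.01 that was 0.25 with the offsets. In the other pairs the difference was -3.96 points for CHD1 with CHD2 and -3.16 for SMARCD1 with SMARCD2. Both were smaller with the offsets: the difference in log2 ratio was -0.23 and then -0.07 for CHD1 with CHD2, and -0.18 and then -0.02 for SMARCD1 with SMARCD2.

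**Figure D3:**
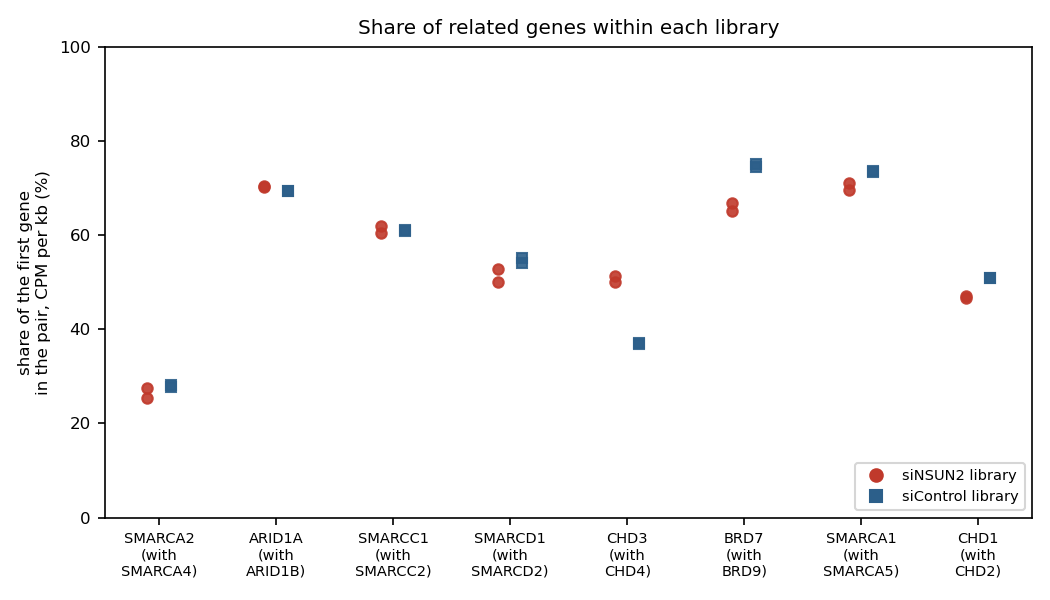
Share of the first gene in each of 8 related pairs (percent of the pair's CPM per kilobase) in each siNSUN2 library (circles) and each siControl library (squares). CHD3 with CHD4 shows the widest gap, 51.3% and 50.1% in siNSUN2 cells against 37.0% in both siControl libraries, followed by BRD7 with BRD9; with GC and length offsets the difference in log2 ratio changes sign for SMARCA2 with SMARCA4 and for ARID1A with ARID1B.

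The direction in which a remodeler gene was called went with the GC content of its transcript. In the longest coding transcript the 45 genes ranged from 36.0% to 64.1% GC. Of 12 genes under 45% GC, 0 were higher and 7 lower, with a median log2 fold change of -0.19; of all 5839 such genes tested, 13.0% were higher and 41.7% lower. Between 45% and 55% GC, 5 remodelers of 19 were higher and 7 lower. Of 14 remodelers over 55% GC, 10 were higher and 0 lower, with a median of 0.20, while of all 4717 such genes 52.4% were higher and 8.44% lower. All genes tested thus showed the same trend, with a Spearman correlation of 0.411 across 16286 genes, against 0.567 (Pearson 0.496) across the 45 remodelers. These are descriptions across genes, which share libraries and are not independent replicates. What produces the GC trend was not tested. ARID3A (59.0% GC), ARID3B (57.4%), CHD4 (51.5%) and CHD6 (47.2%) kept their calls with the offsets, whereas those of INO80B (62.7%), ARID5A (64.1%) and CHD3 (56.1%) were lost, and those of SMARCA4 (59.9%) and INO80E (62.7%) turned round.

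**Figure D4:**
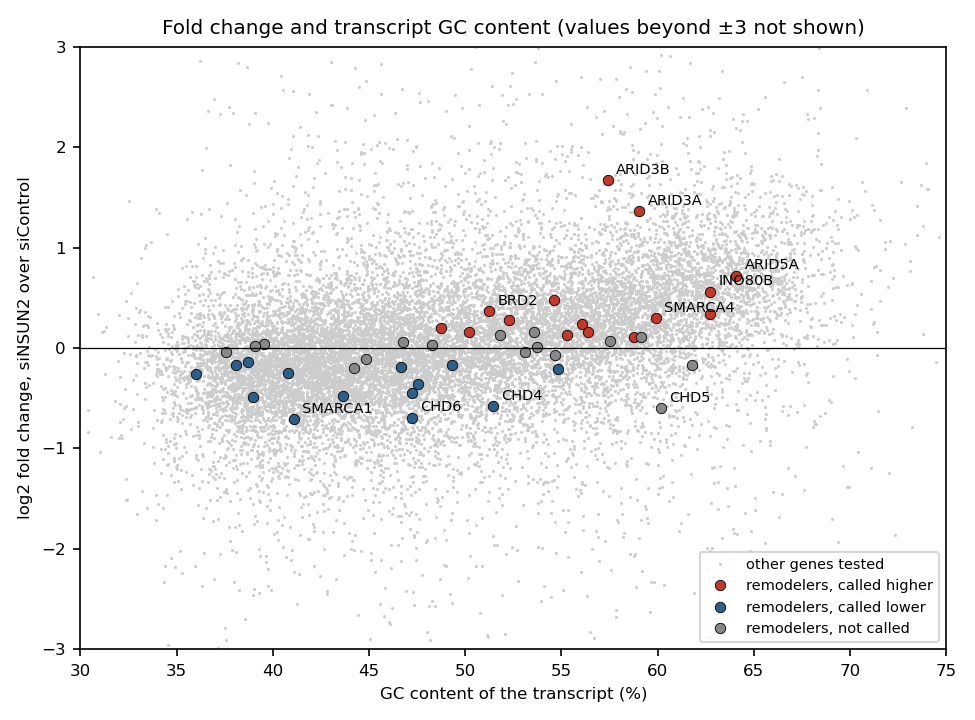
Log2 fold change of siNSUN2 over siControl against the GC content of the transcript in percent, for remodelers called higher, called lower or not called (large points) and for the other genes tested (grey). None of the 14 remodelers over 55% GC is called lower and none of the 12 under 45% GC is called higher; with offsets for GC content and length, SMARCA4, INO80E and SMARCD2 are called in the other direction.

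A short word in the 3′ UTR, ACCCTA, is associated with lower levels in siNSUN2 cells over all genes, and it was picked from the fold changes of these same libraries, so the direction of its holders is no independent evidence. The UTR of the transcript with the longest coding sequence was searched on the transcribed strand alone. The word was present in 9 of the 46 remodelers (19.6%) and in 17.8% of 12095 coding genes tested. Among the 9 holders, SMARCA5 and CHD9 were called lower and BRD3 and INO80B higher. Their windows are shown because they carry the same word with opposite directions. With GC and length offsets in the edgeR test, CHD9 (-0.0014, adjusted p = 0.978) and INO80B (0.08, adjusted p = 0.363) were not called. SMARCA5 (-0.32) and BRD3 (0.16) kept their calls. They are read from GENCODE 29 transcripts on GRCh38, 5′ to 3′ on the strand of the gene, with the word in capitals. SMARCA5 lies at chr4:143554178-143554199 (plus strand), CHD9 at chr16:53325659-53325680 (plus), BRD3 at chr9:134031350-134031371 (minus) and INO80B at chr2:74457913-74457934 (plus), each window being in the 3′ UTR.
SMARCA5: aactggagACCCTAaagcagga
CHD9: actttggcACCCTAtagacata
BRD3: atacgtacACCCTAagccgggg
INO80B: tcttccccACCCTAttaaatta
The median log2 fold change was 0.04 for the remodelers with the word and -0.01 for the 37 without it, whereas over coding genes it was -0.18 with the word and 0.08 without it. The longer form AACCCTA was found in 1 remodeler, ARID1B, which was not called, and in 6.42% of coding genes. A match is a description of these letters and not of a binding site.

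Genes that work beside the remodelers were examined as lists of complexes and domain families, 109 genes in all, of which 105 were tested. Of these, 33 were higher (31.4%, against 27.1% of all genes tested) and 38 lower (36.2%, against 25.5%), with a median of -0.02. Like the remodelers, the partners were expressed at a higher level, with a median of 64.5 CPM in siControl cells against 14.4 CPM for all genes. Calls in either direction reached 67.6% of the partners, against 52.6% of all genes tested. In the fit on genes averaging at least 5 CPM, 33 partners were higher and 39 lower, and 74.5% of all genes were called. With GC and length offsets 27 were higher and 41 lower, and without siControl replicate 1 or with DESeq2 21 were higher. By list, higher and lower calls with the offsets were 0 and 6 for NuRD, 2 and 5 for ISWI, 3 and 3 for BAF and PBAF, 6 and 10 for INO80, SRCAP and TIP60, 4 and 6 for other SNF2-type ATPases, 6 and 9 for other bromodomain proteins, 2 and 1 for other ARID-domain proteins and 4 and 1 for P-TEFb. Partner subunits of NuRD had 1 higher and 6 lower of 12 (median -0.19). MBD2, which ties NuRD to methylated DNA, was at 98.2 and 93.8 CPM in siNSUN2 cells and at 161 and 160 CPM in siControl cells (log2 fold change -0.74, adjusted p = 8.63e-07). MTA2 and HDAC2, a scaffold and a deacetylase of NuRD, were lower at -0.36 (adjusted p = 8.59e-05) and -0.26 (adjusted p = 0.000638), and at -0.54 and -0.11 with GC and length offsets. Partner subunits of ISWI had 1 higher and 6 lower of 8 (median -0.15), led by POLE3 (-0.31), RSF1 (-0.31) and BAZ1A (-0.26), accessory subunits of the CHRAC, RSF and ACF complexes, whose values were -0.17, -0.17 and -0.09 with the offsets.

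BAF and PBAF partners had 6 higher and 2 lower of 14 (median 0.00), but 3 higher and 3 lower with GC and length offsets. PBRM1, the polybromo subunit of PBAF, was at 72.9 and 74.5 CPM in siNSUN2 cells and at 115 and 123 CPM in siControl cells (log2 fold change -0.70, adjusted p = 2.05e-06). PHF10, another PBAF subunit, was not called, at 102 and 94.5 CPM in siNSUN2 cells and 106 and 108 CPM in siControl cells (log2 fold change -0.11, adjusted p = 0.0773). SS18L1, the paralogue of the BAF subunit SS18, was higher at 0.60 (adjusted p = 4.46e-06). BICRA, which defines non-canonical BAF with BRD9, was higher at 0.74 (adjusted p = 1.59e-05) but at -0.10 with the offsets. Partners in the INO80, SRCAP and TIP60 complexes had 8 higher and 8 lower of 24 (median 0.03), and the 3 with the smallest p were lower: ACTR6 (-0.83), an actin-related subunit of SRCAP, RUVBL1 (-0.61), an AAA+ ATPase of all 3 complexes, and MCRS1 (-0.56, and -0.85 with the offsets), an INO80 subunit.

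Other SNF2-type ATPases had 3 higher and 7 lower of 12 (median -0.34). TTF2, a termination factor, was at 38.2 and 37.9 CPM in siNSUN2 cells and at 76.7 and 74.3 CPM in siControl cells (log2 fold change -0.99, adjusted p = 2.1e-07). ERCC6L, a mitotic translocase, was lower by the same amount (-0.99, adjusted p = 3.73e-07), and HLTF, which remodels stalled forks, was at -0.64, and at -0.41 with GC and length offsets. Other bromodomain proteins had 7 higher and 8 lower of 23 (median -0.01), with the acetyltransferase KAT2B (-0.92) and PHIP (-0.45, and -0.29 with the offsets) lower and BRPF3 (0.71), a scaffold like BRD1, higher. Other ARID-domain proteins had 3 higher of 4: JARID2 (0.43), KDM5B (0.29) and KDM5C (0.25), the last of which was at 0.16 without siControl replicate 1 and at -0.10 and called lower with the offsets. P-TEFb and its regulators had 4 higher and 1 lower of 8 (median 0.16). CCNT2, a cyclin of P-TEFb, was at 137 and 127 CPM in siNSUN2 cells and at 112 and 110 CPM in siControl cells (log2 fold change 0.25, adjusted p = 0.00171), with 0.44 under the offsets. MEPCE, which caps the RNA that holds P-TEFb inactive, was higher at 0.19 and was lower at -0.27 with the offsets, and it was not called without siControl replicate 1 (adjusted p = 0.0995). LARP7, which binds that same RNA, was lower at -0.25 and at 0.03 with the offsets.

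**Figure D5:**
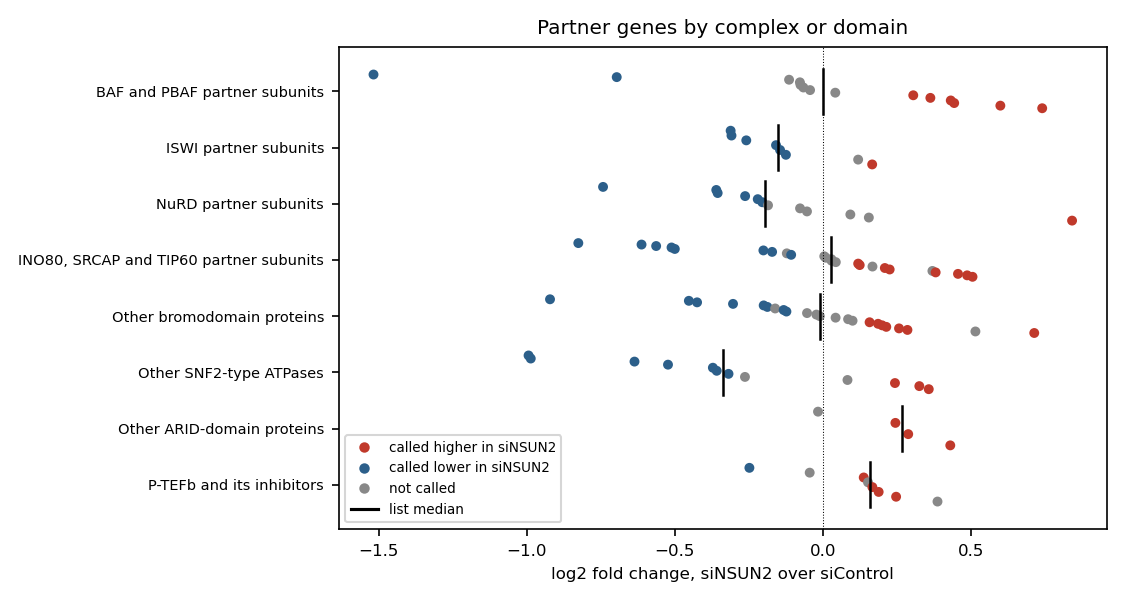
Log2 fold change of siNSUN2 over siControl for the 105 partner genes tested, 1 point per gene and 1 line per list median. The medians lie between -0.34 for other SNF2-type ATPases and 0.27 for other ARID-domain proteins; with GC and length offsets these 2 medians are -0.13 and 0.21.

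Some counts may include reads of overlapping genes, and the sources used here do not give the strand setting of the counting. In GENCODE 29, 29 of the 46 remodelers share exon bases with another gene, and 11 share at least 10% of them. INO80B shares 72% of its exon bases with the readthrough gene INO80B-WBP1, CHD4 46.9% with an unnamed protein-coding gene on its strand and BRD7 42.3% with ADCY7 on the opposite strand, where ADCY7 was higher in siNSUN2 cells (log2 fold change 0.50) and BRD7 lower. INO80B-WBP1 and the unnamed gene have no row in the count table and lie on the strand of INO80B and CHD4. Their reads may be counted for INO80B and CHD4 whatever the strand setting. ADCY7 had 893 and 325 counts in siNSUN2 libraries and 267 and 1539 in siControl libraries. BRD7 had 13594 and 4851 counts in siNSUN2 libraries and 8635 and 42384 in siControl libraries. The shared exon bases do not give the share of reads affected, which was not tested.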

How the data were processed

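The authors' deposited file is a count table with 1 row per Ensembl gene and unnormalized counts, made with HISAT2 and HTSeq on hg19 per the submitters' processing notes, from poly(A) RNA and a stranded, paired-end kit per the labels' protocols. The sources used here do not give versions, annotation or strand setting. Groups and replicate numbers came from sample titles. Symbols, transcript GC content, length and 3′ UTRs came from a table of gene names and GENCODE 29 (GRCh38), matched by gene ID; GC content and length were known for 96.4% of genes tested and all 45 remodelers tested. The test was edgeR 4.0.16 (R 4.3.3) quasi-likelihood (robust, TMM factors of 0.985 to 1.02, filterByExpr, no block), two-sided, on all 16889 genes kept, with p-values adjusted by Benjamini-Hochberg and called below 0.05. It was checked on simulated data. Log2 fold changes put siNSUN2 over siControl. RPKM used transcript lengths. Alternatives were DESeq2 1.42.0, limma-voom (limma 3.58.1), other scaling, filters, thresholds and thinning, a replicate block, leaving out each library, and offsets from a loess trend on GC content and length per library. Values in every library were given for called remodelers with an absolute log2 fold change of at least 0.5 and for a set of core remodelers whatever their change, and for others where their values bear on a group; partner lists name up to 3 called genes with the smallest p. Some genes that these rules take are not reported here. The members and lists were chosen with earlier results of these data known. Figures used Python 3.11.15 and matplotlib 3.10.9.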

Additional observations from a re-analysis of the deposited data

How the results depend on the processing

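Over 44 remodelers and 18 alternatives, 695 gene-level values kept call and direction, 52 lost the call, 16 gained one and 27 changed sign. For the 24 named partners the numbers were 417, 11, 0 and 4. Remodelers higher and lower were 15 and 14; testing against a fold of 1.2 gave 7 and 6, and GC and length offsets gave 8 and 20. Against a fold of 1.2, the count of all genes higher was 2913 and that of all genes lower 2529, and the partner genes had 13 and 18, where the main counts were 4573, 4307, 33 and 38. DESeq2 called 21 partners higher. Without siControl replicate 1, 21 partners were higher. Leaving out each library in turn gave 10 to 15 remodelers higher and 13 to 15 lower, 3720 to 4231 for all genes higher and 3750 to 4695 for all genes lower, 21 to 32 partners higher and 31 to 44 lower, and -3.32 to -3.23 for NSUN2. The median of the remodelers, 0.02, was 0.07 without siNSUN2 replicate 2, -0.07 without siControl replicate 1 and -0.10 with the offsets. With the replicate number as a block, 18 remodelers were higher and 14 lower; SMARCB1 (adjusted p = 0.016), SMARCAL1 (0.0498) and BRD3OS (0.0311) were then called. Across genes, the deviations of the 2 replicate 1 libraries from their group means correlated at 0.156. With 2 libraries per group the deviations of replicate 2 mirror these, so the value cannot decide whether libraries were paired. The labels do not say so, and the numbers were not taken as pairs. Signs turned with the offsets for SMARCA4 (-0.14), SMARCB1 (-0.21), SMARCD2 (-0.21), ARID1A (-0.29), ARID1B (-0.21), BRD9 (-0.026), INO80E (-0.16), CHD1 (0.0041), CHD3 (-0.0516), ARID4A (0.17), BICRA (-0.10), KDM5C (-0.10), LARP7 (0.0268) and MEPCE (-0.27). Signs also turned, for genes not called, with DESeq2 (ARID1B -0.016, ARID4B -0.0109), RLE factors (ARID1B -0.0062, ARID4B -0.0042) and when libraries were left out in turn. The ranges then were -0.31 to 0.0733 for SMARCE1, -0.0401 to 0.11 for ARID1A, -0.0959 to 0.0417 for ARID1B, -0.32 to 0.22 for INO80C, -0.0700 to 0.0871 for INO80D, -0.00727 to 0.0918 for CHD2, -0.0341 to 0.0377 for BRD8, -0.057 to 0.0751 for ARID4B, -0.14 to 0.00649 for SMARCD1 and -0.13 to 0.0164 for ARID4A. The cause of these changes was not tested. Depth limits ARID3C and CHD5, the members with the fewest counts.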

Other observations

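Besides the protein-coding members, 24 non-coding rows carry the same symbol starts, of which 4 were tested and 7 had 0 counts in every library. SMARCA5-AS1, the antisense neighbour of SMARCA5, had 3 and 3 counts in siNSUN2 libraries and 17 and 93 counts in siControl libraries (0.0327 and 0.0876 CPM against 0.400 and 0.437 CPM; log2 fold change -3.02, edgeR quasi-likelihood test, adjusted p = 0.00381). SMARCA5 itself fell by 0.49 on the log2 scale. ARID3BP1, a processed pseudogene of ARID3B, had 97 and 28 counts in siNSUN2 libraries and 20 and 51 counts in siControl libraries (1.06 and 0.818 CPM against 0.471 and 0.240 CPM; log2 fold change 1.49, adjusted p = 0.0163), and was not called with GC and length offsets (1.23, adjusted p = 0.0522). Its sequence resembles that of ARID3B, so the split of reads between them is uncertain. BRD7P2 (log2 fold change -0.23) and INO80D-AS1 (0.15) were not called.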
